A study of Mus musculus with 12 samples.

Results

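Egr1, Ier2, Ier3, Ier5, Dusp1, Dusp6, Zfp36 and Zfp36l1 are 8 immediate early genes, described here in nuclei of mouse liver as the tissue was taken apart into single cells and the hepatocytes were put into culture. They were chosen by name, with earlier results of these data known. They are 8 of the 32285 genes in the count matrices, and all 8 were measured in hepatocyte nuclei of every group. The study compared 3 sample types from each of 8 mice, 24 samples in all. The mice were wild type males, 10 to 12 weeks old and fed chow, and their strain is written C57BL6J in the labels and C57BL/6NTac in the study's methods. Liver (L) was a piece of the median lobe that was tied off and snap-frozen once the anaesthetised animal had been perfused with calcium-free buffer, so the tissue had already met the perfusion when it was frozen. Cell Suspension (CS) was the cell pellet of the same liver after collagenase perfusion, filtering and 3 low-speed spins, which favour hepatocytes over the smaller cells. These cells were taken up and washed in plating medium, which held more serum than the later culture medium. Collagenase, serum and handling thus came together, and their parts cannot be told apart. Primary Hepatocytes (PH) were the same cells cultured on collagen for 24 h. They attached in the plating medium, were then kept with 1 µM dexamethasone, 1 nM insulin and 0.5% serum, and were lifted with trypsin before freezing. Nuclei were tagged with hashtag antibodies, pooled 4 samples at a time into 6 droplet runs, and sequenced from the 3′ ends of RNAs.

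The deposited annotation kept 20024 Liver, 15049 Cell Suspension and 18394 Primary Hepatocytes nuclei, of which 15166, 13339 and 16283 were read as hepatocytes. The total count of unique molecular identifiers (UMIs, each standing for 1 captured RNA molecule) ran from 8502525 to 32104065 per Liver sample, from 2709659 to 17760883 per Cell Suspension sample and from 10436255 to 21713090 per Primary Hepatocytes sample. All 10 genes of a hepatocyte marker list were detected in hepatocyte nuclei of each group, summing to 14630 CPM for Liver, 19220 CPM for Cell Suspension and 4302 CPM for Primary Hepatocytes (CPM, a count scaled to a fixed total per sample), against 44.9, 60.7 and 137 CPM for 10 endothelial markers. Pools 1 and 6 held no culture and pools 3 and 4 held no Liver, so that Liver and Primary Hepatocytes met only in pools 2 and 5. Droplets of 100 to 400 UMIs outside the annotated nuclei, which mostly carry free RNA, held Egr1 at 96.3 to 160 CPM in the pools without cultures and at 354 to 359 CPM in those without Liver. They held Ier3 at 0.469 to 1.25 CPM and at 21.4 to 27.8 CPM in the same pools. A barcode was shared between pools by 676 of the nuclei.

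Immediate early genes are switched on within minutes of a stimulus by transcription factors that are already in the cell, and need no new protein for it. Growth factor and stress signals reach them through kinase cascades such as ERK, p38 and JNK, which activate serum response factor, its ternary complex partners and CREB at their promoters. Several of the products shut the same signals down, since dual specificity phosphatases remove the phosphates from the kinases and the Zfp36 proteins bring RNAs with AU-rich elements to the decay machinery. Taking the liver apart with collagenase is a well known trigger of this response.

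The promoters bear on this grouping because the 8 genes share a class of induction. RefSeq entries of build GRCm38.p6 matched 6 of them, and Egr1 and Ier2 were not matched. The 200 bases before the transcription start are shown for the 5 promoters with a match to 1 of the 6 motifs searched, with the matches in capitals. The search covered both strands of the 250 bases before the start for TATAAA, the cyclic AMP response element TGACGTCA, the AP-1 site TGANTCA, the CArG box of serum response factor, the Egr1 site GCGGGGGCG and the Sp1 site GGGCGG, which is CCGCCC on the other strand. Dusp6, at chr10:99263031-99263230 on the plus strand, held none of these letters.
Ier3 (chr17:35821513-35821712, plus strand): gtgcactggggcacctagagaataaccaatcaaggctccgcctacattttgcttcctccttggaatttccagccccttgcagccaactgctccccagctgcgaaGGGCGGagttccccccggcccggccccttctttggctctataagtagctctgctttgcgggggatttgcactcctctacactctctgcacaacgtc
Ier5 (chr1:155099637-155099836, minus strand): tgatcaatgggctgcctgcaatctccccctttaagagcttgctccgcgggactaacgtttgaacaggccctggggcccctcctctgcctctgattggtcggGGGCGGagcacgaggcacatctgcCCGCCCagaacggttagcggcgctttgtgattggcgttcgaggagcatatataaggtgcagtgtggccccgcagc
Dusp1 (chr17:26508473-26508672, minus strand): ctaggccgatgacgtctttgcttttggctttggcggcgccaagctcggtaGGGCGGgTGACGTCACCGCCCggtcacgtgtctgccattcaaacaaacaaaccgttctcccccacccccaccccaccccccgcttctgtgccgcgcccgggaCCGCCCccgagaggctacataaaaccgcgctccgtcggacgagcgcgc
Zfp36 (chr7:28379229-28379428, minus strand): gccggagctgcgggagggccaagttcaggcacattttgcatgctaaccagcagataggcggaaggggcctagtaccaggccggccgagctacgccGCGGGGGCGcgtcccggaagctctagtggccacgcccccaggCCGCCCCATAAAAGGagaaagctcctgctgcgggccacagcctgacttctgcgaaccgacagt
Zfp36l1 (chr12:80113014-80113213, minus strand): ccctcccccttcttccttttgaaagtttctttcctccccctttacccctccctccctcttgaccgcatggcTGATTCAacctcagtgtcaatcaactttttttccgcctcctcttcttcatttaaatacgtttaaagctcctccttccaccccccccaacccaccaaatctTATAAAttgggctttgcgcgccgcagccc

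The Dusp1 window held a whole cyclic AMP response element 143 to 136 bases before the start, set between Sp1 matches, and 1.55% of 32851 promoter windows of the same length held one. Zfp36 held a CArG box 58 to 49 bases before the start, present in 1.47% of windows, which shares its first base with an Sp1 match, and an Egr1 site 105 to 97 bases before the start, present in 2.57%. Zfp36l1 held an AP-1 site 129 to 123 bases before the start, in 6.75% of windows, and a TATAAA 29 to 24 bases before it, in 12.4%. The Sp1 match in the Ier3, Ier5, Dusp1 and Zfp36 windows is common, at 32.7% of windows. A match describes the letters in these windows and is not a binding site that was measured.

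In hepatocyte nuclei the 8 genes followed 3 courses. Egr1, Ier2, Dusp6, Zfp36 and Zfp36l1 were highest in Cell Suspension, Ier3 and Ier5 were low in Liver and Cell Suspension and highest in culture, and Dusp1 was higher than in Liver in both later sample types. Values are CPM of the UMIs summed over the hepatocyte nuclei of a sample (spliced, unspliced and ambiguous), scaled by edgeR's trimmed mean of M values (TMM), which corrects for a few strong genes taking up the library. Differences are log2 fold changes with their standard errors from edgeR's quasi-likelihood test over 26778 genes, with 8 samples in each group and Benjamini-Hochberg adjusted p-values. The changes from Liver to either later sample type share the 8 Liver samples.

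**Figure D1:**
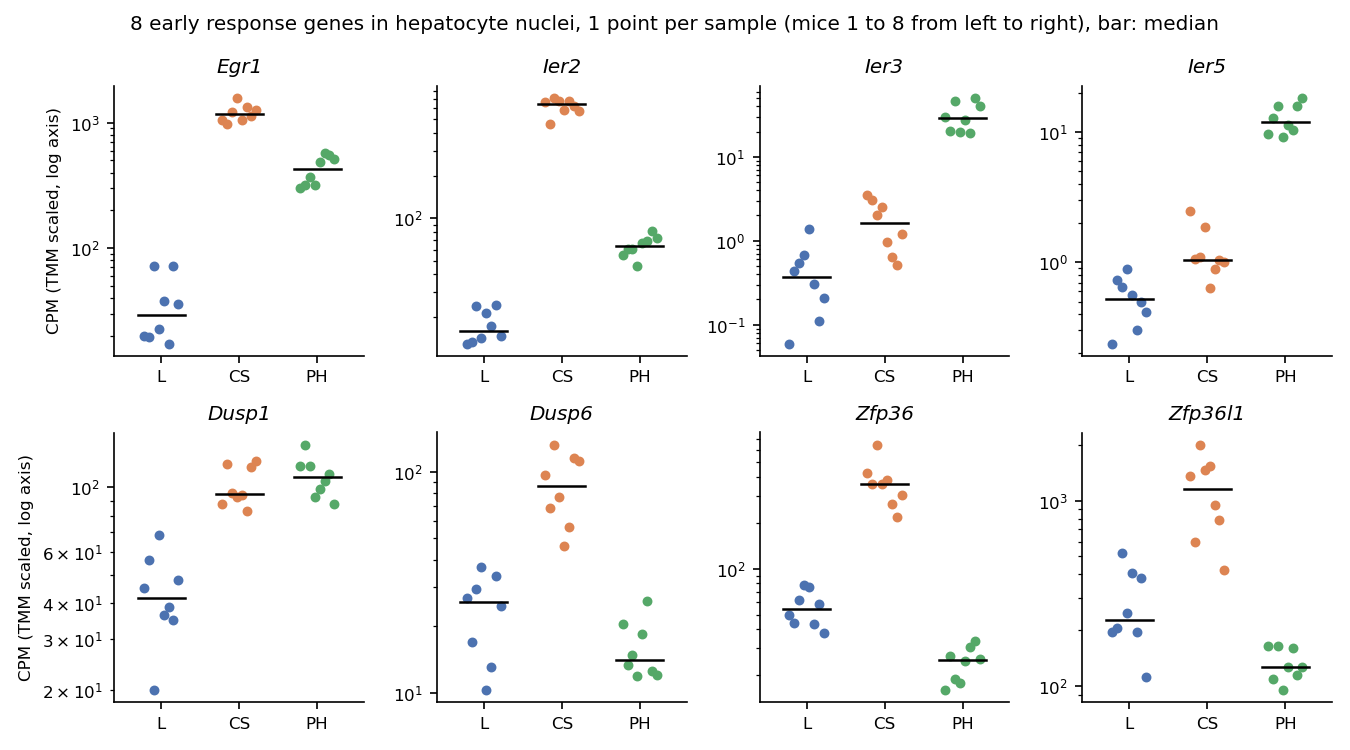
Levels of the 8 genes in hepatocyte nuclei of the 24 samples as TMM-scaled CPM on a log axis, with 1 point per sample and a bar at the median of each sample type (L stands for Liver, CS for Cell Suspension and PH for the cultured Primary Hepatocytes). Egr1 and Ier2 stand between 462 and 1568 CPM in the 8 Cell Suspension samples, apart from the 8 Liver samples, while Ier3 and Ier5 reach 9.17 CPM or more in the 8 cultures and at most 3.54 CPM in the other samples.

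Egr1 encodes a zinc finger transcription factor that is among the fastest genes to respond to growth factors and stress. In the 8 Liver samples it was lowest at 17.3 CPM, had a median of 29.1 and was highest at 72.4. In Cell Suspension the lowest, median and highest were 986, 1168 and 1568 CPM, and in Primary Hepatocytes 304, 425 and 571 CPM. The 3 ranges do not overlap, and Egr1 moved in the same direction in all 8 mice. The rise from Liver to Cell Suspension was 5.01 ± 0.29 on the log2 scale, a fold of 32.2 (adjusted p = 1.11e-13), and the level in culture was still 3.52 ± 0.27 above Liver (adjusted p = 1.68e-12), a fold of 11.5. From Cell Suspension to culture Egr1 fell by 1.48 ± 0.25 (adjusted p = 8.11e-06). Within the 4 pools that held both, the log2 ratio of Cell Suspension to Liver was between 4.22 and 6.13. Among the Liver samples Egr1 was highest in mice 3 and 7, at 72.3 and 72.4 CPM, both in pool 1, and lowest in the 3 samples of pool 6, at 17.3 to 19.9 CPM. The Egr1 level of free RNA was above that of the hepatocyte nuclei of each Liver sample in every pool, and its part in the Liver values was not tested.

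Ier2 encodes a small nuclear protein that takes part in transcriptional regulation. Its 8 Liver samples ran from 13.0 through a median of 15.9 to 24.3 CPM, its Cell Suspension samples from 462 through 644 to 706 CPM, and its Primary Hepatocytes samples from 46.0 through 64.1 to 81.0 CPM. No range overlaps another. The log2 fold change from Liver to Cell Suspension was 5.12 ± 0.17 (adjusted p = 1.04e-19), a fold of 34.9. In culture Ier2 fell by 3.28 ± 0.15 from its Cell Suspension level (adjusted p = 2.54e-17) and stood 1.84 ± 0.15 above Liver (adjusted p = 3.37e-12). The within-pool log2 ratios of Cell Suspension to Liver lay between 4.89 and 5.54.

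Ier3 encodes a small protein linked to cell survival and to prolonged ERK activity, and Ier5 encodes a nuclear protein that acts with the heat shock factor. Ier3 was at 0.0594, 0.371 and 1.38 CPM in Liver (lowest, median and highest), at 0.516, 1.62 and 3.54 CPM in Cell Suspension and at 19.0, 28.9 and 49.8 CPM in culture. Ier5 was at 0.238, 0.527 and 0.892 CPM in Liver, at 0.638, 1.05 and 2.46 CPM in Cell Suspension and at 9.17, 12.01 and 18.1 CPM in culture. All 8 cultures were above every other sample for both genes, whereas Liver and Cell Suspension overlapped. The rise from Liver to culture was 5.95 ± 0.38 for Ier3 (adjusted p = 1.78e-14), a fold of 62.0, and 4.59 ± 0.24 for Ier5 (adjusted p = 1.87e-16), a fold of 24.1. From Cell Suspension to culture the rise was 4.01 ± 0.35 for Ier3 (adjusted p = 2.74e-11) and 3.24 ± 0.23 for Ier5 (adjusted p = 4.35e-13). These are large changes of rare RNAs.

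The smaller step from Liver to Cell Suspension passed the test for Ier3, at 1.95 ± 0.44 (adjusted p = 0.00138), and for Ier5, at 1.35 ± 0.30 (adjusted p = 0.000904), but it rests on 65 and 113 UMIs of Ier3 and on 65 and 78 UMIs of Ier5 over all hepatocyte nuclei of the 2 groups. The 2 Cell Suspension samples in pools without cultures, mice 6 and 7, had Ier3 at 0.633 and 0.516 CPM, within the Liver range, and the 6 samples pooled with cultures had 0.957 to 3.54 CPM. For Ier5 the same 2 samples had 0.886 and 1.03 CPM, inside the 0.638 to 2.46 CPM of the other 6. Within pools the log2 ratio was 0.615 to 0.999 for Ier3, and -0.11 to 1.58 for Ier5, which was higher in Cell Suspension in 3 of the 4 pools. A small constant was added to both means of every within-pool ratio, which draws the ratios of rare RNAs towards no change. With every sample thinned to the smallest total, Ier3 changed by 1.01 (adjusted p = 0.621) and Ier5 by -0.88, so that neither passed and Ier5 turned its direction. The part of free RNA was not tested.

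Dusp1 and Dusp6 encode dual specificity phosphatases. Dusp1 sits in the nucleus and acts mainly on p38 and JNK, and Dusp6 sits in the cytoplasm and is selective for ERK. Dusp1 was at 20.04, 41.8 and 68.5 CPM in Liver, at 83.1, 94.97 and 124 CPM in Cell Suspension and at 87.9, 109 and 140 CPM in culture (lowest, median and highest). All Liver samples lie below all others, and the later groups overlap. Dusp1 was higher than in Liver by 1.23 ± 0.17 in Cell Suspension (adjusted p = 1.33e-06) and by 1.33 ± 0.16 in culture (adjusted p = 3.12e-08). Between culture and Cell Suspension the difference was 0.10 ± 0.16 (adjusted p = 0.641), but with no scaling beyond library size it was 0.79 and passed (adjusted p = 0.000539).

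Dusp6 followed another course. It was at 10.3, 25.8 and 37.2 CPM in Liver, at 46.4, 86.7 and 133 CPM in Cell Suspension and at 11.97, 14.1 and 25.97 CPM in culture. All Cell Suspension samples lie above all others, and Liver and culture overlap. The rise from Liver to Cell Suspension was 1.86 ± 0.24 (adjusted p = 8.13e-07), and Dusp6 fell by 2.43 ± 0.25 from there to culture (adjusted p = 8.09e-10). Between culture and Liver the difference was -0.57 ± 0.24 (adjusted p = 0.0454), lower in 6 of 8 mice. That call did not last: it was lost with no scaling beyond library size, where the difference was -0.02, with the replicate block of mouse, where it was -0.45 (adjusted p = 0.0952), with DESeq2, where it was -0.47 (adjusted p = 0.104), with pool as a covariate, where it was wider at -0.74 (adjusted p = 0.0524), and when mouse 1, 2, 3, 4, 7 or 8 was left out, at -0.60, -0.59, -0.50, -0.33, -0.43 and -0.51. The 2 pools with both groups gave log2 ratios of -1.63 and 0.39. Free RNA held Dusp6 at 26.85 to 38.2 CPM over the pools, where the median culture had 19.4 CPM and the median Liver sample 23.5 CPM without TMM scaling. The part of free RNA in the Dusp6 values was not tested.

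Zfp36, also called tristetraprolin, and its relative Zfp36l1 bind AU-rich elements and bring about the decay of the RNAs that carry them. Zfp36 was at 37.7, 54.4 and 77.8 CPM in Liver, at 218, 358 and 646 CPM in Cell Suspension and at 16.0, 25.2 and 33.7 CPM in culture, with no overlap of any 2 ranges. It rose by 2.71 ± 0.20 to Cell Suspension (adjusted p = 2.57e-11), a fold of 6.55, and in culture it was 1.21 ± 0.19 below Liver (adjusted p = 3.24e-06). From Cell Suspension to culture it fell by 3.92 ± 0.21 (adjusted p = 7.84e-16), the largest fall among the 8 genes in this fit. Zfp36l1 was at 112, 226 and 519 CPM in Liver, at 423, 1152 and 2001 CPM in Cell Suspension and at 95.04, 127 and 164 CPM in culture. Its Liver range overlaps that of both other groups, and each of the 8 mice was higher in Cell Suspension than in Liver. It rose by 2.01 ± 0.28 (adjusted p = 2.73e-06) and then fell by 3.10 ± 0.29 to culture (adjusted p = 1.82e-10). Its level in culture was 1.09 ± 0.28 below Liver (adjusted p = 0.0011), in 7 of 8 mice, a call that was lost with no scaling beyond library size, at -0.51 (adjusted p = 0.0674). Within the 2 pools that held both, the log2 ratio of culture to Liver was -2.11 and -1.77 for Zfp36 and -1.48 and -1.37 for Zfp36l1. Free RNA in the pools with cultures held Zfp36 at 50.6 to 96.2 CPM and Zfp36l1 at 244 to 331 CPM. The highest cultures had 45.7 and 219 CPM without TMM scaling, so that all lay below the free RNA. The part of free RNA in the Liver and culture values of both genes was not tested.

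Counted together, all 8 genes were higher in Cell Suspension than in Liver, where 8.15% of all genes tested were. In culture against Liver 5 were higher (Egr1, Ier2, Ier3, Ier5 and Dusp1), against 27.4% of all genes, and 3 were lower (Dusp6, Zfp36 and Zfp36l1), against 26.3%. In culture against Cell Suspension Ier3 and Ier5 were higher, where 26.9% of all genes were, 5 were lower, where 23.5% were, and Dusp1 did not pass. The median log2 fold change of the 8 genes was 1.98 in the first, 1.59 in the second and -1.96 in the third of these comparisons, beside 0.02, 0.10 and 0.02 over all genes tested. The choice of scaling moved the whole distribution in the comparisons with culture. With no scaling beyond library size the median of all genes was 0.66 for culture against Liver and 0.71 for culture against Cell Suspension, and the share of called genes that were higher went from 51.0% to 75.7% and from 53.4% to 80.2%. In Cell Suspension against Liver that share was 36.5% with TMM, 47.8% with DESeq2-type size factors and 19.9% with no scaling, and all 8 genes were called higher under each. Summed over all nuclei, the same 8 genes were higher in Cell Suspension than in Liver, against 8.01% of all genes.

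Egr1 and Ier2 UMIs were found in a larger share of hepatocyte nuclei in Cell Suspension than in Liver. Free RNA, which held Egr1 at 96.3 to 359 CPM and Ier2 at 43.3 to 109 CPM over the pools, also gives UMIs in nuclei that do not express a gene, and its part in these shares was not tested. Each nucleus of at least 1000 UMIs was thinned to 1000 UMIs, since the median Liver nucleus held 6860 UMIs, the median Cell Suspension nucleus 3025 and the median culture nucleus 5916, and the share of nuclei with at least 1 UMI was taken per sample. Nuclei with an Egr1 UMI made up 2.30% to 6.28% of the Liver samples (median 2.82%), 57.0% to 69.9% of the Cell Suspension samples (median 64.3%) and 29.5% to 48.6% of the cultures (median 39.7%). Ier2 was found in 1.17% to 2.08%, 34.3% to 47.7% and 6.91% to 10.9% of nuclei. Without thinning the Egr1 medians were 13.7%, 85.6% and 81.0%, and the Ier2 medians 11.1%, 71.3% and 35.7%. Exact permutation tests, which were two-sided, of 8 samples against 8 gave p = 0.000155, the smallest that the unpaired test can give, for each of the 6 comparisons of these 2 genes. Exchanging values only within a mouse, an exact permutation test chosen after seeing the data, gave p = 0.00781, the smallest it can give, for each of the 6. Without thinning, the fall of Egr1 from Cell Suspension to culture had p = 0.0384 by the unpaired and 0.18 by the paired exact permutation test, and was seen in 6 of 8 mice.

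**Figure D2:**
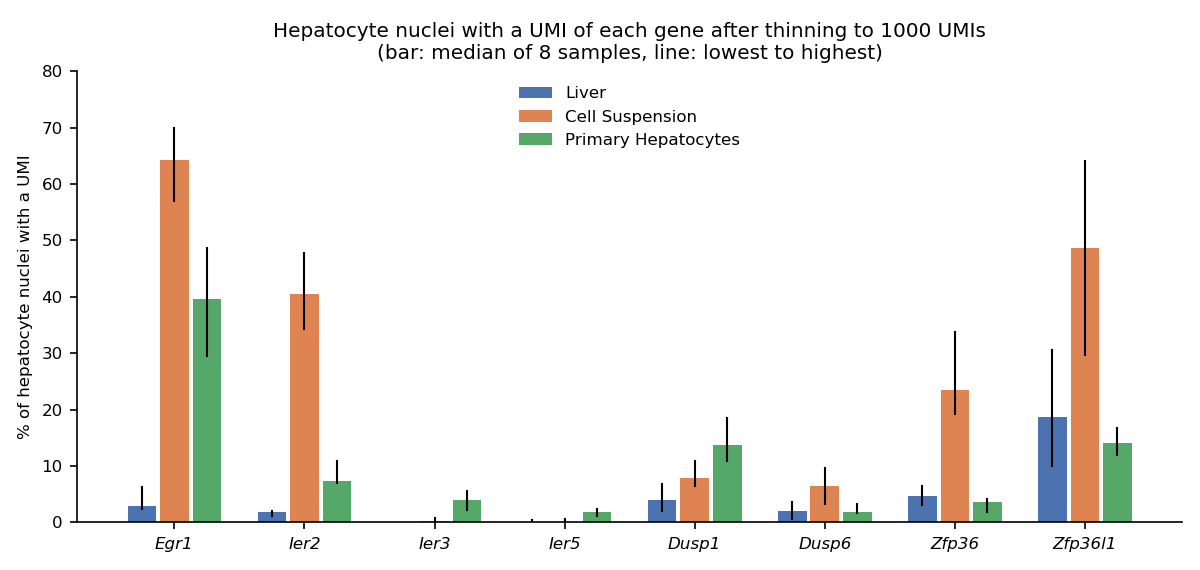
Share of hepatocyte nuclei with at least 1 UMI of each gene after thinning each nucleus to 1000 UMIs, in percent, with bars at the median of 8 samples and lines from the lowest to the highest sample. The Egr1 bar goes from 2.82% in Liver to 64.3% in Cell Suspension and 39.7% in culture, and the Dusp1 bars go up at each step.

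The median share of nuclei with a Zfp36l1 UMI went from 18.8% in Liver to 48.7% in Cell Suspension and 14.2% in culture. Zfp36 went from 4.62% to 23.4% and 3.63%, and Dusp6 from 1.98% to 6.41% and 1.88%. Dusp1 behaved differently, since its median share went up at both steps, from 3.94% to 7.86% and then to 13.8%. The second step, a difference of means of 5.06 percentage points, passed the exact permutation test (p = 0.000466), in contrast to the TMM-scaled level. Thinning scales by library size alone, and with that scaling the Dusp1 level passed as well, at 0.79 (adjusted p = 0.000539). In culture 3.95% of nuclei had an Ier3 UMI and 1.9% an Ier5 UMI, against medians of at most 0.265% elsewhere, which is near the level of single UMIs. Over the 24 comparisons of the 8 genes, 22 had an exact permutation p under 0.05, and the other two were Ier5 between Cell Suspension and Liver (p = 0.135) and Dusp6 between culture and Liver (p = 0.437). Paired within mice, 20 of the 24 had p under 0.05 by the exact permutation test, and Zfp36 and Zfp36l1 between culture and Liver no longer did (p = 0.0625 and 0.102, against 0.0258 and 0.0443 unpaired). The shares were not computed for other genes. Without thinning, 3 of the 8 genes had p under 0.05 by the exact permutation test for Cell Suspension against Liver (Egr1, Ier2 and Zfp36) in place of 7, and the unthinned medians of Dusp1 were 20.4% and 26.7% (p = 0.304) and those of Zfp36l1 62.7% and 73.8% (p = 0.269). The paired exact permutation test gave 0.219 for Dusp1 and 0.125 for Zfp36l1 there, and 4 genes with p under 0.05, Dusp6 being the addition (p = 0.0156). With 500 UMIs it was 7, 6 and 8 genes in place of 7, 7 and 8 for Cell Suspension against Liver, culture against Liver and culture against Cell Suspension. Among endothelial nuclei thinned to 500 UMIs, 1.26% of Liver, 14.6% of Cell Suspension and 9.20% of culture nuclei had an Egr1 UMI, against 1.70%, 41.2% and 21.6% of hepatocyte nuclei at the same depth.

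Unspliced RNA, which still carries intron sequence, made up unlike shares of Dusp1, Dusp6 and Zfp36l1 in the sample types. Ier2 and Ier5 have 1 exon and gave no unspliced UMI, and neither did Zfp36, which has 2. In hepatocyte nuclei unspliced reads made up 73.8% of all Liver UMIs, 66.8% of those of Cell Suspension and 63.9% of those of culture (medians of 8 samples), while for Egr1 it was 1.89%, 1.18% and 1.38%. Dusp1 was unspliced in 11.3% to 32.1% of its UMIs in Liver (median 14.5%), in 5.77% to 8.99% in Cell Suspension (median 7.52%) and in 13.8% to 23.0% in culture (median 17.4%). All 8 Cell Suspension samples lie below all other samples. The Dusp1 gene model spans 56539 bases on chromosome 17 (26505590 to 26562128, GRCm38) and reaches beyond the start used for the promoter above, so that unspliced UMIs from sequence upstream of that start may be counted here. With unspliced UMIs alone, Dusp1 differed by 0.33 between Cell Suspension and Liver and was not called (adjusted p = 0.112), and it rose by 1.33 from Cell Suspension to culture (adjusted p = 4.18e-09).

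**Figure D3:**
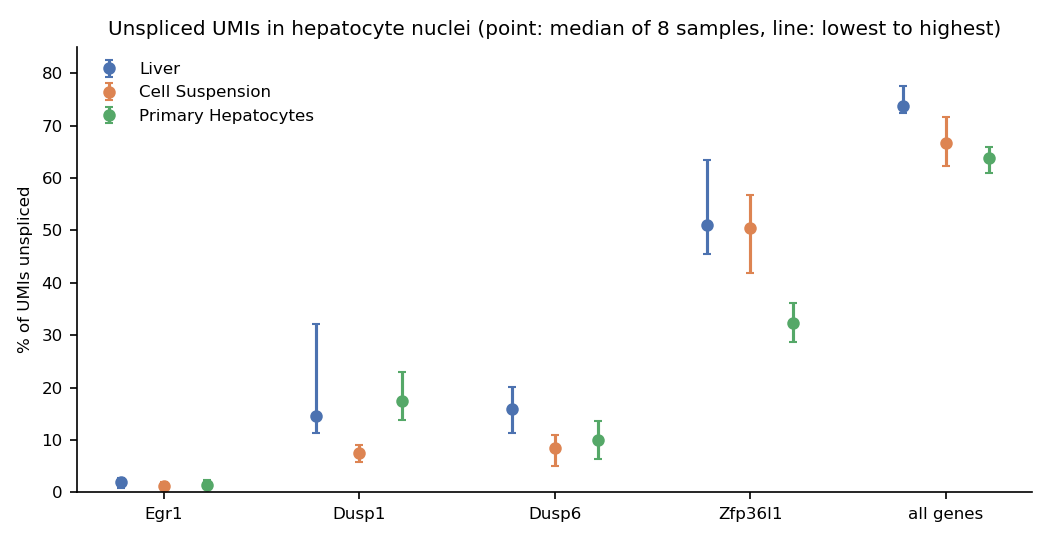
Unspliced UMIs in percent of all UMIs of a gene in hepatocyte nuclei, with points at the median of 8 samples and lines from the lowest to the highest sample. Dusp1 is lowest in Cell Suspension, at a median of 7.52%, and Zfp36l1 is lowest in culture, at 32.4%.

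Dusp6 was unspliced in 15.9% of its Liver UMIs (11.4% to 20.1%) and in 8.57% of its Cell Suspension UMIs (5.02% to 10.98%). In culture it was 10.1% (6.31% to 13.7%). As for Dusp1, all Cell Suspension samples lay below all Liver samples, but here they overlapped the cultures. Zfp36l1, with medians of 51.1% in Liver and 50.5% in Cell Suspension, was at 32.4% in culture, where the 8 samples ran from 28.6% to 36.2% and lay below the 41.8% of the lowest Cell Suspension sample. Internal priming at A-rich stretches also yields unspliced reads in 3′ data, and its part in these shares was not measured.

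Genes of the same pathways, taken from lists chosen with earlier results of these data known, moved in part with the 8 genes. Of 54 tested genes on a list of other early response genes, 44 were higher in Cell Suspension than in Liver and none lower, with a median log2 fold change of 1.94 beside 0.02 over all genes. Of all genes tested, 8.15% were higher and 14.2% lower. The 4 with the largest rise were Fosb, Atf3 and Fos, which encode AP-1 and related factors, and the antiproliferative Btg2, at 7.70 ± 0.37, 7.13 ± 0.34, 6.50 ± 0.21 and 5.24 ± 0.25. In culture against Liver 34 were higher and 10 lower, where 27.4% and 26.3% of all genes were, and in culture against Cell Suspension 11 were higher and 32 lower, where 26.9% and 23.5% were. The 10 and the 11 are thus below the share of all genes. Fosl1, Ccn2, Klf6 and Tnfaip3 had the largest rise from Cell Suspension to culture, as Ier3 and Ier5 did, at 4.65 ± 0.32, 4.31 ± 0.36, 4.01 ± 0.32 and 3.28 ± 0.30, and Fosb had the largest fall, of 6.03 ± 0.33.

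Relatives of Dusp1 and Dusp6 stood on a list of other dual specificity phosphatases, not all of which are selective for ERK, and of Spry and Spred genes. Of 14 tested, 7 were higher in Cell Suspension than in Liver and none lower, against 8.15% and 14.2% of all genes, among them Dusp4 at 1.82 ± 0.26 and the ERK inhibitor Spry4 at 1.28 ± 0.21. From Cell Suspension to culture 8 were higher and 2 lower, against 26.9% and 23.5% of all genes, so that the lower count is under the general share. Dusp8, Dusp10 and Dusp5 rose by 3.04 ± 0.20, 2.56 ± 0.22 and 2.36 ± 0.20, while Spry4 fell by 4.07 ± 0.24. On a list of 20 genes of the ERK cascade and the serum response, only Srf was higher in Cell Suspension (2.68 ± 0.15), against 8.15% of all genes. Only Elk1 was lower, by 0.66 ± 0.15, against 14.2%, so that both counts are under the general share. In culture against Liver 10 were higher and 5 lower, the latter near the 26.3% of all genes that were lower and the former above the 27.4% that were higher, with a median of 0.15 beside 0.10 over all genes. The 10 were led by Elk3, Nras, Srf and Mapk3, at 2.44 ± 0.18, 1.71 ± 0.14, 1.64 ± 0.15 and 1.48 ± 0.18. Among the 5 were the receptors Egfr, which fell by 2.52 ± 0.60, and Met, which fell by 1.19 ± 0.16. Of 11 stress kinases and their targets 1 was higher and 1 lower in Cell Suspension than in Liver, with a median of -0.15. Against 8.15% and 14.2% of all genes, the former is near the general share and the latter under it. The higher was Mapkapk2, the kinase that phosphorylates Zfp36, which rose by 2.49 ± 0.19, and the lower was Creb1, which fell by 0.35 ± 0.10. Mapkapk2 then fell by 2.36 ± 0.19 to culture. There 3 of the 11 were higher than in Cell Suspension and 6 lower, the former near the 26.9% of all genes that were higher and the latter above the 23.5% that were lower.

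Nab1 and Nab2 bind Egr1 and repress its activity. Nab2 fell by 0.91 ± 0.22 from Liver to Cell Suspension (adjusted p = 0.00264) and fell by 3.17 ± 0.24 from Liver to culture (adjusted p = 6.2e-13), whereas Nab1 did not pass in any of the 3 comparisons. A list of 14 genes held factors that carry out AU-rich element decay or regulate it in either direction. In Cell Suspension against Liver, where 8.15% of all genes were higher and 14.2% lower, 1 was higher, the family member Zfp36l2 at 0.61 ± 0.17. Lower were 3, Elavl1, Dcp1a and Cnot8, by 0.40, 0.33 and 0.33. In culture against Liver, where 27.4% of all genes were higher and 26.3% lower, 3 were higher, led by the decapping enzyme Dcp2 at 0.92 ± 0.09, and 6 were lower, led by the deadenylase subunit Cnot8, which fell by 1.62 ± 0.10. The count of higher genes is thus near the general share in Cell Suspension and under it in culture.

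In endothelial nuclei, which line the sinusoids, all 8 genes were higher in Cell Suspension than in Liver, where 2.03% of 18279 genes were. Egr1 was at 20.6, 30.6 and 59.2 CPM in Liver (lowest, median and highest), at 208, 463 and 795 CPM in Cell Suspension and at 137, 199 and 256 CPM in culture. Its rise to Cell Suspension was 3.87 ± 0.22 (adjusted p = 3.95e-17). Dusp1 was at 40.7, 46.5 and 60.2 CPM in Liver, at 160, 208 and 428 CPM in Cell Suspension and at 76.0, 122 and 137 CPM in culture, with no overlap of any 2 ranges. It rose by 2.33 ± 0.17 to Cell Suspension (adjusted p = 7.01e-14) and fell by 1.07 ± 0.17 to culture (adjusted p = 2.63e-06) where hepatocyte nuclei had a difference of 0.10 ± 0.16. The other 6 genes rose by 3.71 ± 0.30 (Ier2), 3.32 ± 0.29 (Zfp36), 1.9 ± 0.36 (Ier3), 1.81 ± 0.48 (Ier5), 1.11 ± 0.24 (Dusp6) and 0.93 ± 0.19 (Zfp36l1). The calls of Ier3 and Ier5 were lost without mouse 1, at 1.39 and 1.18 (adjusted p = 0.0615 and 0.31). With spliced counts alone Ier5, Dusp6 and Zfp36l1 were lost, at 1.28, 0.79 and 0.42 (adjusted p = 0.101, 0.0917 and 0.403), and with pool as a covariate Ier5 was lost, at 1.54 (adjusted p = 0.185). With sums thinned to the smallest sample Ier3 turned to -0.40 and 4 genes were called, while Ier5, Dusp6 and Zfp36l1 were at 1.18, 2.30 and 1.64 (adjusted p = 0.858, 0.292 and 0.232). Egr1, Ier2, Dusp1 and Zfp36 kept their calls under these alternatives.

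In culture against Liver 7 of the 8 genes were higher in endothelial nuclei, against 15.4% of all genes, and none was lower, against 18.4%. Dusp6 did not pass, at 0.54 ± 0.25 (adjusted p = 0.0836), but passed under RLE scaling (0.69) and with no scaling beyond library size (0.66). Ier3 was at 2.93, 5.04 and 8.69 CPM in Liver, at 9.20, 14.3 and 41.0 CPM in Cell Suspension and at 52.0, 124 and 183 CPM in culture, and no range overlaps another. Its rise from Liver to culture was 4.51 ± 0.27 (adjusted p = 9.18e-17). From Cell Suspension to culture Ier3 alone was higher, at 2.61 ± 0.27, where 9.33% of all genes were higher, and Egr1, Ier2, Dusp1 and Zfp36 were lower, where 10.7% were lower. Ier5, Dusp6 and Zfp36l1 did not pass, at 0.05 ± 0.45, -0.56 ± 0.26 and -0.41 ± 0.20. Over the alternatives, Ier3 and Zfp36 kept their calls in this comparison wherever tested (adjusted p at most 0.00484 and 0.0289). Those of Egr1, Ier2 and Dusp1 were each lost under some of them (adjusted p up to 0.33, 0.222 and 0.234). With pool as a covariate the calls in culture against Liver were 4 in place of 7, since Ier5, Zfp36 and Zfp36l1 were lost (1.02, 0.50 and 0.19). Zfp36l1 was also lost without mouse 1, 3, 6 or 8, at 0.50, 0.49, 0.51 and 0.48, and in nuclei above the median hashtag margin Zfp36 was at 0.14 and Zfp36l1 turned to -0.13, neither of them called. With sums thinned to the smallest sample only Egr1 and Ier3 of the 7 kept their calls in culture against Liver, so that Ier2 and Dusp1 were lost as well.

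**Figure D4:**
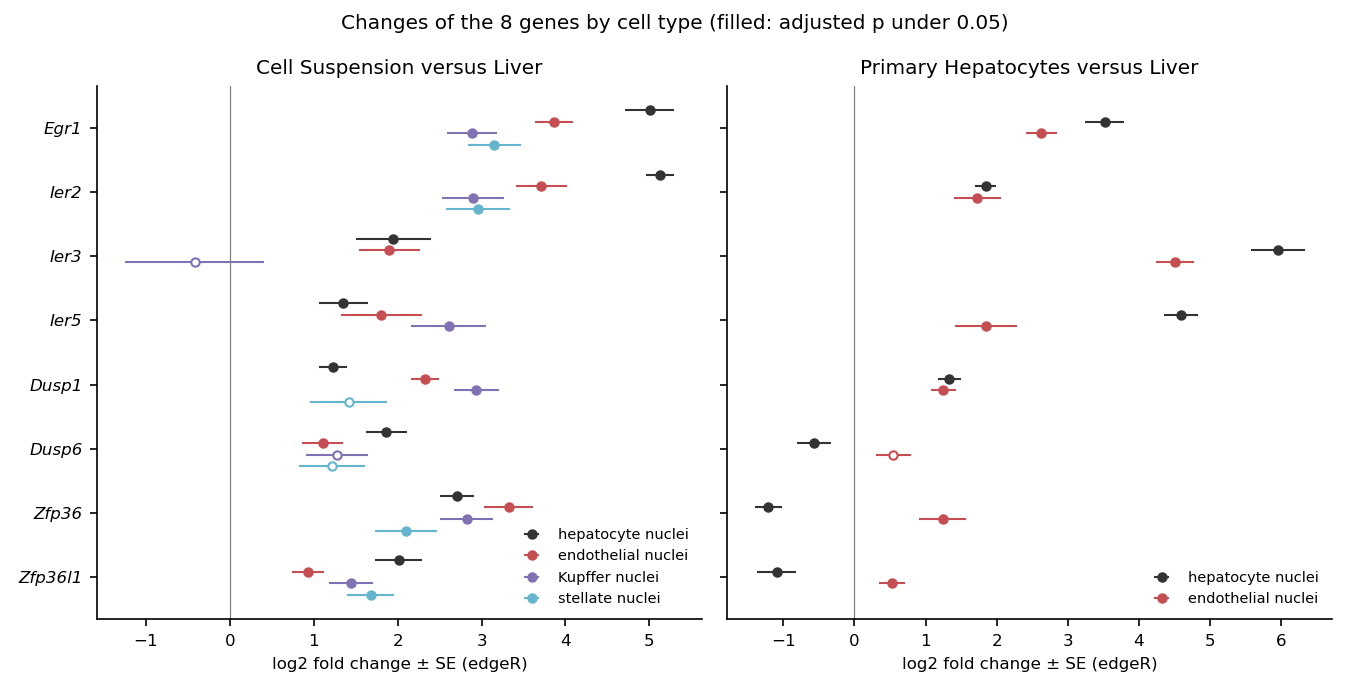
Log2 fold changes with standard errors (edgeR, TMM) of the 8 genes in hepatocyte, endothelial, Kupffer and stellate nuclei, for Cell Suspension against Liver on the left and Primary Hepatocytes against Liver on the right; filled points passed an adjusted p of 0.05. In hepatocyte nuclei on the left Egr1 and Ier2 stand at 5.01 and 5.12, and on the right Ier3 and Ier5 at 5.95 and 4.59. On the right Zfp36 and Zfp36l1 lie below 0 in hepatocyte and above 0 in endothelial nuclei, the Zfp36l1 call in hepatocyte nuclei being lost with no scaling beyond library size and the endothelial calls of both with pool as a covariate (0.50 and 0.19).

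The endothelial and hepatocyte changes differed by a test of the difference itself, fitted with sample as a block. From Liver to Cell Suspension 4 of the 8 genes differed, against 2.46% of all genes. The endothelial minus the hepatocyte log2 fold change was -1.502 ± 0.29 for Ier2 (adjusted p = 0.000223), -1.37 ± 0.26 for Egr1 (adjusted p = 0.000125) and -1.15 ± 0.21 for Zfp36l1 (adjusted p = 7.29e-05), whose endothelial change was thus the smaller, and 0.87 ± 0.21 for Dusp1 (adjusted p = 0.00674), whose endothelial change was the larger. From Liver to culture 6 differed, against 25.1% of all genes, with Zfp36 at 2.32 ± 0.27 and Ier5 at -2.69 ± 0.48 as the widest. The endothelial side of Ier5 rests on 29 UMIs in Liver and 46 in culture, with none in 1 of 8 Liver and 2 of 8 culture samples. Its endothelial log2 ratio of culture to Liver was -5.25 and 1.80 in the 2 pools that held both. From Cell Suspension to culture 7 differed, against 18.7%, with Egr1 as the exception at 0.25 ± 0.23 (adjusted p = 0.553). The summed hepatocyte marker list stood in endothelial nuclei at a median of 21.0% of its level in hepatocyte nuclei in Liver, 25.3% in Cell Suspension and 66.2% in culture. Summed over the nuclei of each sample type, that list was at 3059, 3814 and 3309 CPM in endothelial nuclei of Liver, Cell Suspension and culture, and at 14630, 19220 and 4302 CPM in hepatocyte nuclei, so that the 66.2% goes with the lower hepatocyte level in culture. The endothelial marker list in endothelial nuclei was at 14330, 12520 and 6649 CPM, and the part of its lower level in the comparisons with culture was not tested. In Cell Suspension, Ier2 and Zfp36l1 in endothelial nuclei were at 23.6% and 17.8% of their hepatocyte level, at or under that of the marker list, and Egr1 and Zfp36 were at 44.4% and 49.9%. Dusp1 was at 254% and Ier3 at 1118%, so that the median of both was above the hepatocyte level in Cell Suspension. The part of hepatocyte RNA in the endothelial changes was not tested.

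Kupffer cells, the resident macrophages of the liver, were tested in 8 Liver and 8 Cell Suspension samples with 919 and 342 nuclei. There 6 of the 8 genes were higher in Cell Suspension, against 1.08% of all genes. Dusp1 rose from 12.4, 31.3 and 43.9 CPM in Liver to 33.3, 233 and 400 CPM in Cell Suspension (2.93 ± 0.27, adjusted p = 7.08e-11). Ier5, low in hepatocytes, was at 2.50, 6.15 and 12.4 CPM in Liver and at 12.5, 34.8 and 64.5 CPM in Cell Suspension (2.61 ± 0.45, adjusted p = 0.000225). This rests on 18 and 34 UMIs, with a single UMI in 5 of 8 Liver and 4 of 8 Cell Suspension samples, and the nearest samples of the groups held 1 UMI each. Egr1, Ier2 and Zfp36 rose by 2.88 ± 0.30, 2.90 ± 0.37 and 2.82 ± 0.31, and Zfp36l1 by 1.44 ± 0.26. Dusp6 did not pass at 1.28 ± 0.37 (adjusted p = 0.0763), though it passed under RLE scaling at 1.45, and Ier3, with 15 and 3 UMIs in the groups, had -0.42 ± 0.83.

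Stellate cells, the vitamin A storing cells around the sinusoids, had 880 nuclei in 8 Liver samples, and 7 Cell Suspension samples had at least 10. Of the 6 genes with enough counts 4 were higher in Cell Suspension, against 0.903% of all genes. These were Egr1 at 3.15 ± 0.32, Ier2 at 2.96 ± 0.38, Zfp36 at 2.10 ± 0.37 and Zfp36l1 at 1.68 ± 0.28, while Dusp1 and Dusp6 did not pass at 1.41 ± 0.46 and 1.22 ± 0.39 and passed under RLE scaling at 1.78 and 1.57. Ier3 and Ier5 had too few counts to be tested. In Kupffer nuclei of Cell Suspension the hepatocyte marker list stood at a median of 20.4% of its level in hepatocyte nuclei, with Egr1 at 19.3%, Zfp36l1 at 21.96%, Ier2 at 24.8% and Zfp36 at 44.1%. In stellate nuclei the list stood at 23.1%, with Ier2 at 27.2%, Zfp36 at 33.0%, Egr1 at 38.9% and Zfp36l1 at 39.9%. The part of hepatocyte RNA in the Kupffer and stellate changes was not tested.

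Hepatocytes differ along the lobule, between the portal vein, where oxygen-rich blood enters, and the central vein. Dusp6 was higher on the pericentral side. Zones were taken from the deposited clusters by lists of pericentral and periportal genes, in 8 Liver and 6 Cell Suspension samples, and the cutoffs on the ratio of the lists (1.5 and 0.5) were set once the clusters had been seen. The clusters were made from these same nuclei, so that the p-values below are not independent of the clustering. In Liver, Dusp6 was at 15.6, 35.9 and 59.2 CPM in pericentral and at 8.47, 16.8 and 26.9 CPM in periportal clusters, higher in 7 of 8 samples, and in Cell Suspension at 89.4, 142 and 291 CPM against 30.7, 56.6 and 99.7 CPM, higher in 6 of 6. The log2 difference was 1.38 ± 0.15 in Liver (adjusted p = 3.11e-15) and 1.52 ± 0.14 in Cell Suspension (adjusted p = 1.52e-26). Of the 8 genes Dusp6 was called in Liver, where 13.9% of all genes were, so that the count is near the general share. Leaving out 1 mouse added calls there: Ier2 without mouse 1, 4 or 8 (-0.62, -0.68 and -0.68), Egr1 without mouse 4, 6 or 8 (-0.57, -0.47 and -0.76) and Zfp36l1 without mouse 5 (0.41), while Egr1 was at 0.13 without mouse 7. Dusp1 was called beside Dusp6 in Cell Suspension, at 0.52 ± 0.14 (adjusted p = 0.00219), where 9.41% were. Of the pericentral nuclei of Cell Suspension 1350 came from mouse 4, against 18 to 417 from each of the other 5 mice used, and without mouse 4 both calls remained, with Dusp6 at 1.435 (adjusted p = 1.61e-15) and Dusp1 at 0.55 (adjusted p = 0.0201).

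**Figure D5:**
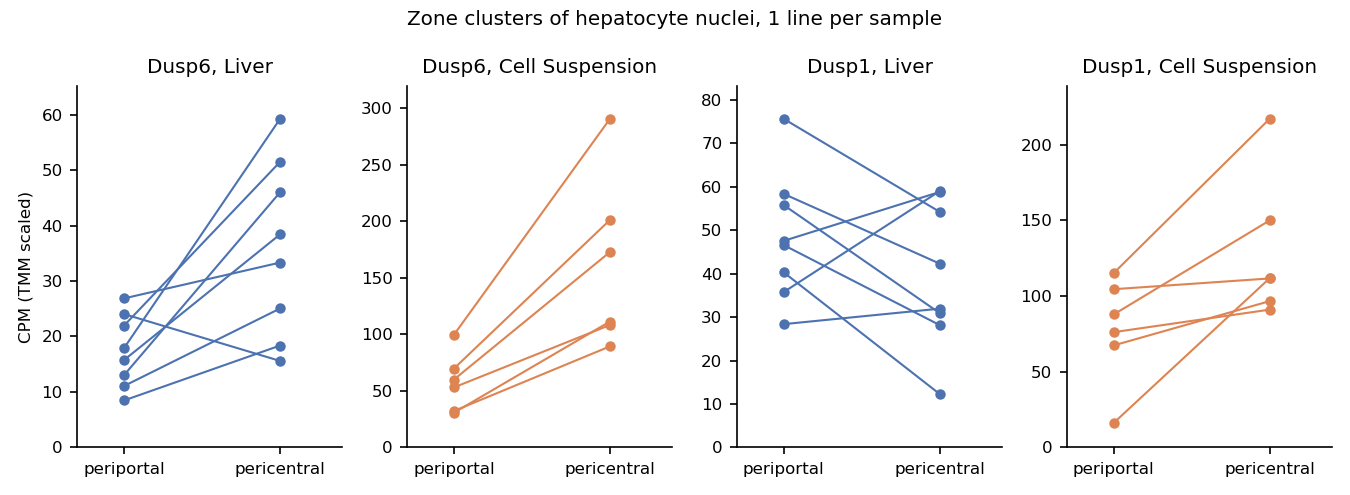
Levels of Dusp6 and Dusp1 in periportal and pericentral clusters of hepatocyte nuclei as TMM-scaled CPM, with 1 line per sample, for 8 Liver and 6 Cell Suspension samples. Dusp6 goes up towards the pericentral side in 7 of 8 and 6 of 6 samples, and Dusp1 in 3 of 8 and 6 of 6.

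None of the 8 genes passed the test that the zonal difference changed between Liver and Cell Suspension, against 1.13% of all genes, although Egr1, Ier2 and Dusp1 had an unadjusted p under 0.05 (0.0174, 0.0154 and 0.00196). The zones were then set in another way, chosen after seeing the data, by the marker lists in each nucleus, taking the nuclei at either end of the ratio in each sample. These lists hold none of the 8 genes. By these zones Dusp6, Zfp36l1 and Zfp36 were pericentral in Liver and Ier2 was periportal, with 21.4% of all genes called, and Dusp6, Dusp1, Egr1 and Ier2 were pericentral in Cell Suspension, with 18.2% called. Dusp6 differed by 1.65 ± 0.10 in Liver and 2.26 ± 0.13 in Cell Suspension. The difference between the sample types then passed for Egr1 (0.98 ± 0.24, adjusted p = 0.0182), Ier2 (0.70 ± 0.16, adjusted p = 0.011) and Dusp1 (0.77 ± 0.16, adjusted p = 0.00267), against 1.19% of all genes. It was not called for the same genes with the cluster zones. The pericentral cluster classes of the 2 sample types were unlike: 1 cluster, with 2010 nuclei of Cell Suspension and 4 of Liver, had 4851 CPM of the pericentral and 10420 CPM of the periportal list, where the other two, with 1057 and 333 nuclei of Liver and 126 and 16 of Cell Suspension, had 10270 and 9661 CPM of the pericentral and 1373 and 1179 CPM of the periportal list. The zones set per nucleus were unlike as well. Their pericentral nuclei held 226902 UMIs of the pericentral and 140097 of the periportal list in Liver, and 87884 and 93564 in Cell Suspension. With either kind of zone, the test of the difference between sample types thus set unlike classes side by side.

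The genes whose levels over the 24 samples were most like those of each of the 8 were found by Pearson's correlation of log2 CPM in hepatocyte nuclei, over the 8610 genes that averaged 10 CPM or more. The samples fall into the 3 sample types, so that these values mostly describe differences between the types, and they carry no test. Egr1 was most like Ppp1r15a, a phosphatase subunit of the stress response (r = 0.971), and Ier2 was most like H3f3b, Jun and Fos (0.988, 0.988 and 0.983). Ier3 and Ier5 had Fosl1 and Cep192 in common among their closest 3 (0.992 and 0.990 for Ier3, 0.986 and 0.986 for Ier5). Dusp1 had no gene as close, with the AP-1 related Maff first at 0.881. Dusp6 and Zfp36 both had Nudt4 among their closest 3 (0.931 and 0.958), and Zfp36l1 was most like Fgb and Fgg, which encode fibrinogen chains (0.972 and 0.962). Among the 8 genes themselves, Ier3 and Ier5 were the closest pair (0.985), followed by Zfp36 and Zfp36l1 (0.931) and Egr1 and Ier2 (0.913).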

How the data were processed

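Nuclei of 24 samples (8 mice, 3 sample types) were sequenced in 6 pools of 4. The authors deposited raw UMI counts per droplet and gene, split into spliced, unspliced and ambiguous reads, made with Salmon Alevin and Alevin-fry on a GRCm38 transcriptome after bcl2fastq 2.19.0, and a table of nuclei with hashtag sample, cluster and cell type, from which doublets had been removed with scDblFinder. The margin of each hashtag assignment was deposited as a fraction between 0 and 1, and was used only in an alternative. The hashtag label CD2 was read as Cell Suspension of mouse 2. Of the 7 clusters the authors called cultured cells, 1 was read as endothelial and 1 as stellate, since that marker list, relative to its mean over all clusters, was at least 3 times any other list. The other 5, among them a low-UMI cluster of 2321 nuclei, were read as hepatocyte by default, since no list of another cell type reached that ratio.

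Counts were summed over the 3 splicing states per sample and cell type, for samples with at least 10 nuclei. Genes with at least 10 counts were tested in 1 fit over the groups with edgeR 4.0.16 (R 4.3.3, quasi-likelihood test, TMM) and called at a Benjamini-Hochberg adjusted p under 0.05. The standard error is the log2 fold change divided by the square root of its F. Shares of nuclei were compared by exact permutation tests, unpaired and paired within mice, with scipy 1.17.1. The median hepatocyte nucleus of Liver held 6860 UMIs, that of Cell Suspension 3025 and that of culture 5916, and the number of counts limits Ier3 and Ier5 most. On simulated counts with 200 changed genes among 26710, the hepatocyte comparison of Cell Suspension with Liver recovered 87.0%. The median log2 fold change was 0.95 for the raised and -1.07 for the lowered genes. The changed genes were drawn from those above a minimum mean count, and recovery was not computed for genes as rare as Ier3 and Ier5 were in Liver. Alternatives were RLE size factors, no scaling, other filters (filterByExpr or none), single splicing states, the mouse as a block, pool as a covariate, thinned sums, subsets of nuclei, DESeq2 1.42.0 and leaving out each mouse.

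By the study's methods, equal mouse numbers mark samples of 1 liver, which are therefore paired. The correlation of the deviations of such samples from the group means over 6472 genes was 0.378 to 0.877 between Liver and Cell Suspension, -0.0754 to 0.134 between Liver and culture, and -0.147 to 0.125 between Cell Suspension and culture. The best match had the same number in 7, 1 and 2 of 8 mice. The pairing of the cultures thus rests on the labels alone. Each mouse gave 1 sample per type, so p-values cover the spread between animals.

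The 8 genes and the pathway lists were chosen with earlier results of these data known. Other genes are named by rule, as the 4 with the largest rise and fall among the called genes of a list with a mean of at least 5 CPM, and as the 3 genes most like each of the 8. Bulk RNA and protein data were not analysed here.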

Additional observations from a re-analysis of the deposited data

Results flagged for a closer look

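In 7 of 76 groups of samples examined, 1 sample stood far from the others by Dixon's criterion, which chance alone does in about 5 of 100 groups. In hepatocyte nuclei these were Ier3 in the Liver of mouse 5, at 1.38 CPM (32 UMIs), and Zfp36 in the Cell Suspension of mouse 3, at 646 CPM. In endothelial nuclei they were Ier3 in the Liver of mouse 5, at 8.69 CPM (14 UMIs), Ier3 and Dusp1 in the Cell Suspension of mouse 1, at 41.0 CPM (25 UMIs) and 428 CPM (261 UMIs), and Zfp36 in the culture of mouse 7, at 161 CPM (18 UMIs). In Kupffer nuclei it was Egr1 in the Cell Suspension of mouse 4, at 605 CPM (40 UMIs).

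The change differed between endothelial and hepatocyte nuclei by edgeR's test of the difference for 17 of 24 comparisons. Of all genes, 2.46% differed for Cell Suspension against Liver, 25.1% for culture against Liver and 18.7% for culture against Cell Suspension. The difference is given here as endothelial minus hepatocyte log2 fold change. For Cell Suspension against Liver it was -1.37 for Egr1, -1.50 for Ier2, 0.87 for Dusp1 and -1.15 for Zfp36l1. For culture against Liver it was -1.11 for Egr1 (adjusted p = 0.000309), -1.48 for Ier3 (adjusted p = 0.00279), -2.69 for Ier5 (adjusted p = 1.8e-06), 0.82 for Dusp6 (adjusted p = 0.0193), 2.32 for Zfp36 (adjusted p = 4.32e-12) and 1.33 for Zfp36l1 (adjusted p = 1.39e-07). For culture against Cell Suspension it was 1.31 for Ier2, -1.38 for Ier3, -3.20 for Ier5, -1.17 for Dusp1, 1.68 for Dusp6, 1.81 for Zfp36 and 2.48 for Zfp36l1. The Ier5 values rest on 29, 30 and 46 UMIs in endothelial nuclei of Liver, Cell Suspension and culture. The hepatocyte marker list stood at 66.2% of its hepatocyte level in endothelial nuclei of culture, with 3309 CPM there and 4302 CPM in hepatocyte nuclei, and its part in these differences was not tested.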

How the results depend on the processing

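Of 1371 single values recomputed under the alternatives, 1261 kept their direction and side of the threshold, 53 lost the call, 33 gained it and 24 changed sign. With unspliced counts alone the number of the 8 genes called went to 3 and 5 for Cell Suspension and culture against Liver in hepatocyte nuclei, and to 2, 2 and 1 for Cell Suspension against Liver, culture against Liver and culture against Cell Suspension in endothelial nuclei; fewer of them were then tested. In endothelial nuclei Cell Suspension against Liver gave 5 with spliced counts, 4 thinned and 5 with nuclei above the median hashtag margin, culture against Liver gave 4 with pool as a covariate, 2 thinned and 4 by margin, and culture against Cell Suspension gave 2 thinned. Under filterByExpr 2 were called in Kupffer and 2 in stellate nuclei, where 2 of the 8 passed that filter in each. Zones from marker lists gave 4 in Liver, 4 in Cell Suspension and 3 for the difference, and a minimum log2 fold change of 1 gave 1 in Cell Suspension. Leaving out each mouse gave 8 to 8, 7 to 8 and 7 to 7 calls in the hepatocyte comparisons, 6 to 8, 6 to 8 and 5 to 6 in the endothelial ones, 6 to 7 in Kupffer and 4 to 5 in stellate nuclei, and 1 to 3 and 2 to 2 in the zones. Except where counts show fewer genes tested, the cause was not tested.

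With the mouse as replicate block 8, 7 and 7 genes were called in hepatocyte and 8, 7 and 5 in endothelial nuclei, and the paired fit changed no call other than that of Dusp6 in culture against Liver. The paired test of shares of nuclei gave 20 of 24 thinned and 17 unthinned, in place of 22 and 18. Values that changed sign were Ier5 in hepatocyte (-0.88) and Ier3 in endothelial nuclei (-0.40) for Cell Suspension against Liver when thinned. For culture against Liver in endothelial nuclei they were Dusp6 with unspliced counts (-0.84) and Zfp36l1 with unspliced counts (-0.28) and by margin (-0.13). For culture against Cell Suspension there, they were Zfp36l1 with spliced counts (0.12) and Ier5 with the replicate block (-0.0815), with pool (-0.51), thinned (-0.52), in nuclei of at least 1000 UMIs (-0.19) and without mouse 2, 5, 6 or 8 (-0.0052, -0.082, -0.17 and -0.051, in a range of -0.17 to 0.75 over the mice left out). The endothelial minus hepatocyte value of Ier2 for culture against Liver was 0.0028 under filterByExpr. In the zones of Liver, Dusp1 was 0.031 and 0.0033 without mouse 1 and 4 (range -0.26 to 0.031), Ier3 was 0.44 without mouse 5 (range -0.93 to 0.44) and Egr1 was 0.13 without mouse 7 (range -0.76 to 0.13). In those of Cell Suspension, Zfp36 was 0.037 under RLE scaling, 0.048 without mouse 8 (range -0.12 to 0.048) and 0.10 with marker lists, Ier5 was -0.071 without mouse 4 (range -0.071 to 0.48) and Zfp36l1 was -0.022 without mouse 5 (range -0.022 to 0.26).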

Other observations

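Some nuclei carried a cell type name of another sample type than their hashtag. In 532 Cell Suspension nuclei annotated as tissue hepatocytes Egr1 was at 630 CPM and Ier2 at 380 CPM, and in 76 Liver nuclei annotated as isolated hepatocytes they were at 358 and 174 CPM. In 780 Cell Suspension nuclei annotated as cultured Ier3 was at 15.7 CPM and Ier5 at 7.08 CPM, and in 172 Liver nuclei annotated as cultured Ier3 was at 8.26 CPM and Ier5 had no UMI. Most of these nuclei were in the low-UMI cluster. Its 705 Cell Suspension nuclei had Ier3 at 4.83 CPM and no Ier5 UMI, so the Ier5 UMIs came from the remaining few. Its 166 Liver nuclei had Ier3 at 4.79 CPM. In 73 culture nuclei annotated as hepatocytes of tissue or suspension Egr1 was at 722 CPM and Zfp36l1 at 1045 CPM. With the Liver and Cell Suspension nuclei annotated as cultured and the culture nuclei annotated otherwise left out, the change from Liver to Cell Suspension in hepatocyte nuclei was 1.89 for Ier3 and 1.25 for Ier5, and both were called (edgeR, adjusted p = 0.00229 and 0.00175).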
